A study of Mus musculus with 12 samples.

Results

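The expression of 9 genes of the circadian clock was described in the colorectum of 12 mice: Arntl, Clock, Npas2, Rora, Cry1, Cry2, Nfil3, Csnk1d and Csnk1e. They were chosen by name for their place in the clock, as its activators, its cryptochromes, 2 further transcription factors that set the level of Arntl or of clock output genes, and 2 kinases of the clock proteins. All 9 are among the 17734 genes measured, and all 9 passed the filter on low values that left 15315 genes for testing. The circadian clock is a feedback loop of transcription found in almost every cell of the body, gut cells included. ARNTL (also called BMAL1) pairs with CLOCK or NPAS2 on E-box sequences and turns on the period and cryptochrome genes, whose proteins return to the nucleus and shut their own transcription off. A second loop sets the level of Arntl, which RORA raises and the REV-ERB proteins (Nr1d1, Nr1d2) lower, and in the day-night cycle Arntl and Npas2 therefore run opposite to Nr1d1, Dbp and the period genes.

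Bulk RNA-seq was made from 12 male C57BL/6 mice of 8 to 10 weeks, 3 in each of 4 groups. Normal mice had plain water. Colitis mice had 2.5% dextran sulfate sodium (DSS), a sulfated sugar polymer toxic to the gut epithelium, added to their water over 7 days. The remaining groups, also of normal and of colitis mice, were treated alike and received berberine (BBR), a plant alkaloid, as a daily gavage of 100 mg/kg, over 7 days by the methods of the study and over 6 days by the labels. The tissue is colorectum by the labels and rectum by the methods. Collection started at 9 am, and the hour at which each mouse was taken is not given in the sources used here, which matters for genes whose level turns over the day. The whole tissue was sequenced, so fewer cells of a type and less RNA per cell cannot be told apart.

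The table gives 1 value per gene and mouse, read as FPKM, which is scaled to transcript length and library size. The mice numbered 4, 1 in each group, stand apart from the other 8: their columns sum to 482194 to 504337 FPKM against 696286 to 765876, and 872 to 1086 genes are at 0 against 1332 to 1926. By granulocyte and smooth muscle markers, a colitis mouse receiving BBR, the one numbered 4, also looked unlike the other 5 colitis mice. Its summed granulocyte markers were at 2.95 FPKM against 0.53 to 3.64 FPKM in the 6 mice without colitis, and its smooth muscle markers at 4396 FPKM were above those of all 5. Values for the mice numbered 1 to 3 and for those numbered 4 are given beside many of the results. Most genes were lower in colitis mice than in normal mice (median log2 fold change -0.32), and a P of at most 0.05 was reached by 3280 genes, 852 of them higher. After quantile normalization the median was -0.05 and 1488 of 3009 such genes were higher.

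In normal mice the most abundant of the 9 genes per transcript length was Csnk1d with 41.3 ± 1.57 FPKM (SD, n = 3), followed by Arntl with 19.5 ± 0.644 and Cry2 with 13.8 ± 3.0. Clock had 11.9 ± 1.08, Npas2 10.7 ± 2.27, Csnk1e 7.73 ± 2.23 and Cry1 4.28 ± 0.613 FPKM. Nfil3 with 0.86 ± 0.148 and Rora with 0.757 ± 0.254 FPKM were the lowest. Csnk1d and Arntl stood above every other member in each normal mouse, whereas the ranges of the neighbours Cry2, Clock and Npas2 overlapped, as did those of Nfil3 and Rora. For a transcript of 2000 bases, 3 reads are worth 0.0758 to 0.124 FPKM, and the lowest value of any member in any mouse was 0.27 FPKM, for Rora.

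**Figure D1:**
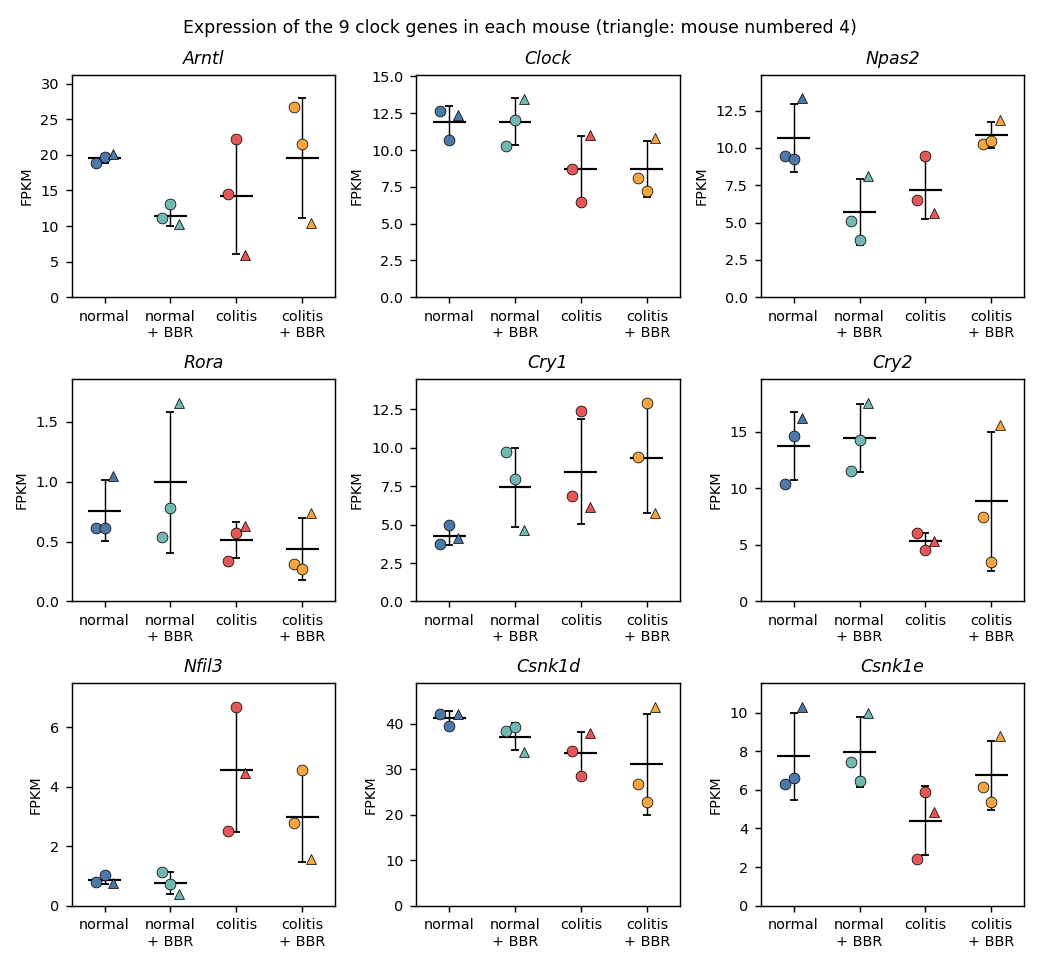
FPKM of each of the 9 genes (vertical axis, from 0) in the 4 groups of 3 mice (horizontal axis). Points are mice, triangles are the mice numbered 4, and lines and bars are the mean and SD. Nfil3 lies at 0.4 to 1.13 FPKM in the 6 mice without colitis and at 1.56 to 6.68 FPKM in the 6 with it, and Npas2 is lower with BBR in normal mice and higher with BBR in colitis mice.

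Clock proteins act on the genes of one another through short binding sequences, and the promoter stretches below are shown because they hold the matches of the 4 members in which any was found. RefSeq promoter windows of GRCm38.p6, from 250 bases before to 50 bases after a start, were searched on both strands for the E-box CACGTG, its variant CACGTT, the ROR elements TAGGTCA and TGGGTCA, and the D-box TTANNTAA. These are in 7.15%, 4.68%, 2.61%, 3.98% and 6% of all 32851 windows. A window was given for 8 of the 9 genes, all but Csnk1d, and 4 of the 8 held a match. This count is per gene, over any of the letters and up to 4 windows, so the shares per window above cannot be set beside it. The share of all windows with any match was not computed. Each stretch is written 5′ to 3′ along its gene, with the match in capitals. In Cry1 the E-box begins 60 bases before the start (CACGTG) and the variant 79 bases before it (AACGTG, the variant on the other strand), within chr10:85185055-85185154, minus strand. In Cry2 the variant begins 166 bases before the start, within chr2:92434170-92434269, minus strand. Nfil3 has a ROR element (TGACCTA, on the other strand) 12 bases before its start, within chr13:52981040-52981139, minus strand. For Arntl, 1 of its 2 windows has a ROR element 31 bases after the start, within chr7:113207531-113207557, plus strand.
Cry1: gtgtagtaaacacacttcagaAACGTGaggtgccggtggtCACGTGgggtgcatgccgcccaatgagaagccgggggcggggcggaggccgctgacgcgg
Cry2: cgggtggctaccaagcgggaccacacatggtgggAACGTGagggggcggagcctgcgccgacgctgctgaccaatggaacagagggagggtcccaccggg
Nfil3: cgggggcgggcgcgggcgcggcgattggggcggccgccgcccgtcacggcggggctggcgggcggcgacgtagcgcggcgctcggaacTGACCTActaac
Arntl: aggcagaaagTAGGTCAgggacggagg
None of these letters was found in the windows of Clock, Npas2, Rora and Csnk1e, which says only that they are not in these windows.

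The question of colitis against normal mice was whether inflammation of the bowel changes the clock genes. In colitis mice Nfil3 was 4.53-fold higher and Cry1 1.87-fold higher than in normal mice, while Cry2 was at 0.395 and Csnk1e at 0.553 of the normal level, as fitted on the log2(FPKM + 0.1) scale. These 4 of the 9 genes reached a P of at most 0.05 in limma, the limit the study itself used, against 21.4% of all tested genes. None passed the Benjamini-Hochberg limit of 0.05 over all genes, which 1.08% of all genes passed, with Nfil3 closest (limma adjusted p = 0.0537). The 3 colitis mice did not overlap the 3 normal mice for these 4 and for Csnk1d, against 29.3% of all genes, and 0.1 is the smallest p that an exact permutation test can give for groups of 3. Without the normal mouse numbered 4, 2 members reached a P of at most 0.05, against 15.6% of all genes. Without the colitis mouse receiving BBR numbered 3, or the one numbered 4, which enter only the shared spread, Nfil3 and Cry2 passed the adjusted limit (adjusted p of 0.0247 and 0.0348, or 0.0213 and 0.0304), against 4.17% or 5.34% of all genes. A term for the mice numbered 4 also brought both past it (adjusted p of 0.0181 and 0.0435), against 9.22% of all genes, as did a fit of these 2 groups alone (0.0337 and 0.034), against 3.19%. With the replicate number as a term, Nfil3 alone passed it (limma adjusted p = 0.0416), against 4.79% of all genes.

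Averaging the colitis effect over mice with and without BBR sets 6 mice against 6. On this average Nfil3 rose 3.99-fold and Cry2 fell to 0.456 of the level without colitis, both past the adjusted limit, against 14.3% of all genes. Clock, Rora, Cry1 and Csnk1e reached a P of at most 0.05 in limma but not the adjusted limit, making 6 of the 9 genes at this P against 39% of all genes. A term for the mice numbered 4 brought Clock, Rora and Cry1 past the adjusted limit (limma adjusted p = 0.0227, 0.0244 and 0.0372) beside Nfil3 and Cry2, with 34.9% of all genes past it. With the replicate number as a term, Rora and Csnk1e passed it beside Nfil3 and Cry2 (limma adjusted p = 0.0459 and 0.031 for the former), against 16.1% of all genes. Leaving out the colitis mouse receiving BBR numbered 4 brought 6 members past the adjusted limit, Nfil3, Cry2, Csnk1d, Clock, Cry1 and Rora, but 38.8% of all genes passed it in that fit. Leaving out any of 10 other mice left 1, Nfil3, so that the call of Cry2 was kept only without that mouse or without the colitis mouse numbered 4, where Clock passed too (limma adjusted p = 0.0355, with 27.5% of all genes past the limit). In those 10 fits the log2 difference of Cry2 was -1.23 to -0.87, with a limma adjusted p of 0.0533 to 0.0794. In the 8 mice numbered 1 to 3 alone, Nfil3, Cry2, Clock and Csnk1d passed, which is 4 of 9 against 40.4% of all genes, a share near the background. The members at a P of at most 0.05 were 3 without the colitis mouse receiving BBR numbered 2 or 3, and 3 without the normal mouse or the normal mouse receiving BBR numbered 4, against 28.7% to 33.8% of all genes.

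**Figure D2:**
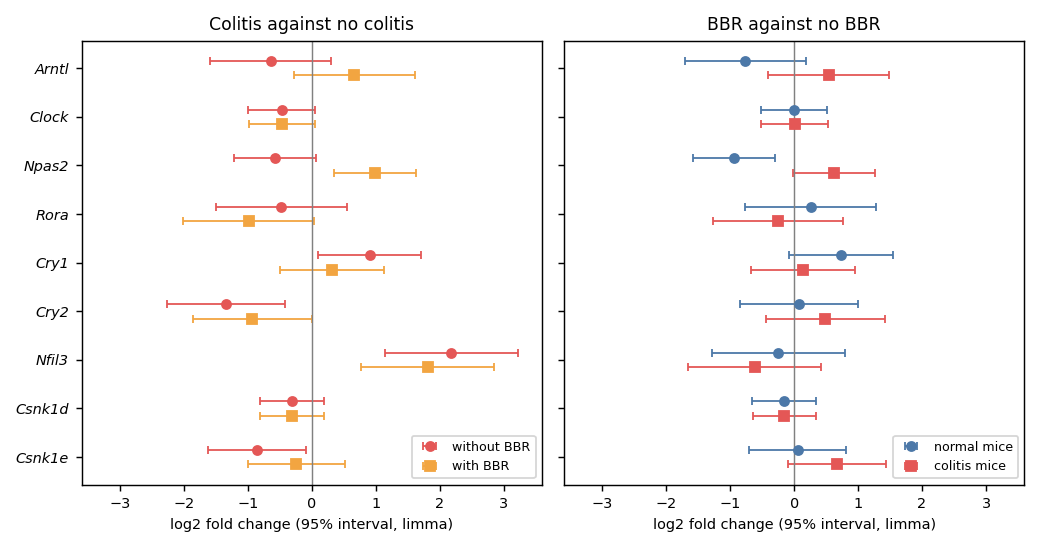
Log2 fold changes of the 9 genes (horizontal axis) with 95% intervals from limma, for colitis with and without BBR (left) and for BBR in normal and colitis mice (right). The intervals of Nfil3 lie above 0 for colitis in both settings, and the estimates of Npas2 and Arntl for BBR lie on opposite sides of 0 in normal and colitis mice.

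Among the activators, Arntl encodes the obligatory partner of the loop. It was at 18.8, 19.6 and 20.1 FPKM in normal mice and at 11.1, 13.1 and 10.2 FPKM in normal mice receiving BBR. Colitis mice had 14.5, 22.2 and 5.94 FPKM, and colitis mice receiving BBR had 26.8, 21.5 and 10.4 FPKM. Normal mice hardly differed from one another and all 3 exceeded all 3 normal mice receiving BBR, while within each colitis group the mouse numbered 4 was the lowest. Against normal mice, the log2 difference was -0.77 with BBR (SE 0.43, limma adjusted p = 1.00, exact permutation p = 0.1) and -0.65 with colitis (SE 0.43, adjusted p = 0.379, exact p = 0.4). The latter was -0.10 in the mice numbered 1 to 3 and -1.74 in those numbered 4. BBR in colitis mice gave 0.54 (95% interval -0.40 to 1.49), and 0.017 to 0.96 when 1 mouse was left out. Averaged over BBR, the colitis difference was 0.01 (95% interval -0.66 to 0.68), made of opposite values, 0.44 in the mice numbered 1 to 3 and -0.86 in those numbered 4.

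Npas2, the paralogue of Clock that can take its place beside ARNTL, was the member with a P of at most 0.05 for BBR in normal mice, and it differed in the other direction in colitis mice. Normal mice had 9.47, 9.28 and 13.3 FPKM, and normal mice receiving BBR had 5.13, 3.81 and 8.14 FPKM. Colitis mice had 6.5, 9.43 and 5.65 FPKM, and colitis mice receiving BBR had 10.3, 10.5 and 11.9 FPKM. With BBR every normal mouse was below every untreated normal mouse, and every colitis mouse was above every untreated colitis mouse. The log2 difference with BBR was -0.95 in normal mice (SE 0.29, limma adjusted p = 1.00, exact permutation p = 0.1) and 0.62 in colitis mice (SE 0.29, adjusted p = 0.809, exact p = 0.1). Both signs held in the mice numbered 1 to 3 (-1.07 and 0.40) and in those numbered 4 (-0.70 and 1.06). The interaction of BBR and colitis was 1.57 on the log2 scale (95% interval 0.66 to 2.47), with a limma adjusted p of 1.00 over all genes. Colitis mice receiving BBR were 1.98-fold above normal mice receiving BBR (limma adjusted p = 0.215, exact permutation p = 0.1), and colitis mice were at 0.670 of normal mice (adjusted p = 0.267, exact p = 0.2). The latter, -0.58 on the log2 scale, was -0.24 after centring on the median gene of each mouse. The averaged colitis difference of Npas2 was 0.48 in the mice numbered 1 to 3 and -0.34 in those numbered 4.

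Clock, the DNA-binding partner of ARNTL with acetyltransferase activity, was at 12.7, 10.7 and 12.4 FPKM in normal mice and 10.3, 12.04 and 13.4 FPKM in normal mice receiving BBR. It was at 8.69, 6.49 and 11 FPKM in colitis mice and at 8.08, 7.19 and 10.8 FPKM in colitis mice receiving BBR. The colitis groups lay lower, but their mice numbered 4 reached the range of the normal mice. The averaged colitis effect was -0.47 on the log2 scale (SE 0.17, limma adjusted p = 0.073), with an exact permutation p of 0.02 over 6 mice against 6. It was -0.58 in the mice numbered 1 to 3 and -0.24 in those numbered 4. The median of all genes shifted by -0.36 in this comparison, and the effect on Clock was -0.14 after quantile normalization and -0.07 after centring on the median gene of each mouse. With BBR the mean level was 11.9 FPKM in normal mice, the same as without it (95% interval of the log2 difference -0.52 to 0.51), and in colitis mice the log2 difference was 0.01 (95% interval -0.51 to 0.53).

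Rora encodes the nuclear receptor that activates Arntl through ROR elements. It was low, at 0.61, 0.61 and 1.05 FPKM in normal mice and 0.54, 0.78 and 1.66 FPKM in normal mice receiving BBR. Colitis mice had 0.34, 0.57 and 0.63 FPKM, and colitis mice receiving BBR had 0.31, 0.27 and 0.74 FPKM. In 3 of the 4 groups the mouse numbered 4 was well above the others, and all groups overlapped. The averaged colitis effect was -0.73 on the log2 scale (SE 0.33, limma adjusted p = 0.125, exact permutation p = 0.045), and it was -0.29 after quantile normalization and -0.34 after centring. With the replicate number as a term it was -0.86 (limma adjusted p = 0.0459), with 16.1% of all genes past the limit.

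Of the cryptochromes, the repressors that bind CLOCK and ARNTL, Cry1 was above and Cry2 below the normal level in colitis mice. Cry1 was at 3.77, 4.96 and 4.11 FPKM in normal mice and at 6.85, 12.4 and 6.12 FPKM in colitis mice, with no overlap. Normal mice receiving BBR had 9.71, 7.95 and 4.64 FPKM, and colitis mice receiving BBR had 9.40, 12.9 and 5.75 FPKM. The mouse numbered 4 was the lowest in the colitis group and in both groups receiving BBR. The log2 difference of colitis against normal was 0.90 (SE 0.37, limma adjusted p = 0.195, exact permutation p = 0.1), and it was 1.07 in the mice numbered 1 to 3 and 0.56 in those numbered 4. In normal mice BBR gave 0.73 (SE 0.37, limma adjusted p = 1.00, exact permutation p = 0.2), with 1.01 in the mice numbered 1 to 3 and 0.17 in those numbered 4, and in colitis mice 0.14 (95% interval -0.67 to 0.95).

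Cry2 was at 10.4, 14.7 and 16.2 FPKM in normal mice and 11.6, 14.3 and 17.6 FPKM in normal mice receiving BBR. Colitis mice had 6.05, 4.54 and 5.37 FPKM, so that all 3 were below all 6 mice without colitis. Colitis mice receiving BBR had 7.49, 3.52 and 15.6 FPKM, of which the first 2 lay near the colitis mice and the third, the mouse numbered 4, near the normal ones. The log2 difference of colitis against normal was -1.34 (SE 0.42, limma adjusted p = 0.12, exact permutation p = 0.1), and -1.22 in the mice numbered 1 to 3 against -1.58 in those numbered 4. Averaged over BBR it was -1.13 (SE 0.30, limma adjusted p = 0.0366, exact permutation p = 0.015), with -1.26 in the mice numbered 1 to 3 and -0.88 in those numbered 4. Quantile normalization gave -0.81 and centring on the median gene of each mouse -0.74, and the call was lost in both. BBR in colitis mice gave 0.49 (95% interval -0.44 to 1.41), which was -0.03 in the mice numbered 1 to 3 and 1.52 in those numbered 4.

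The ratio of Cry1 to Cry2 within a mouse does not depend on the scaling between mice. It was 0.362, 0.338 and 0.253 in normal mice and 0.841, 0.556 and 0.264 in normal mice receiving BBR. In colitis mice it was 1.13, 2.72 and 1.14, and in colitis mice receiving BBR it was 1.26, 3.67 and 0.369. Cry1 thus exceeded Cry2 in 5 of the 6 colitis mice and in 0 of the 6 without colitis, and the exception was the mouse numbered 4 that stands apart. This ratio was not tested.

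Nfil3, also known as E4BP4, is a repressor that binds D-box sequences opposite to DBP and has separate roles in immune cells. It was at 0.79, 1.03 and 0.76 FPKM in normal mice and 1.13, 0.74 and 0.40 FPKM in normal mice receiving BBR. Colitis mice had 2.51, 6.68 and 4.45 FPKM, and colitis mice receiving BBR had 2.79, 4.57 and 1.56 FPKM. All 6 colitis mice were above all 6 mice without colitis. The share of all genes that separate in this way was not computed. For groups of 3, 29.3% of all genes did not overlap in colitis against normal and 20.2% in colitis under BBR. The averaged colitis effect was 2.0 on the log2 scale (SE 0.34, limma adjusted p = 0.0105), 1.96 in the mice numbered 1 to 3 and 2.07 in those numbered 4. The exact permutation p of 0.005 is the smallest that this test can give. This call held in all 12 fits that left out a mouse and in all 9 other alternatives run for it (limma adjusted p of 0.00182 to 0.0353 and of 0.00299 to 0.0148). BBR in colitis mice gave a log2 difference of -0.62 (95% interval -1.66 to 0.43), -0.20 in the mice numbered 1 to 3 and -1.45 in those numbered 4.

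The kinases CK1 delta and CK1 epsilon, encoded by Csnk1d and Csnk1e, phosphorylate the period proteins and so help set the length of the cycle. Csnk1d was at 42.1, 39.5 and 42.3 FPKM in normal mice and 34.1, 28.5 and 38.0 FPKM in colitis mice. With BBR it was at 38.5, 39.3 and 33.7 FPKM in normal mice and 26.7, 22.9 and 43.8 FPKM in colitis mice. The colitis mice were all below the normal mice, but the log2 difference of -0.31 (SE 0.23, limma adjusted p = 0.416, exact permutation p = 0.1) was no larger than the shift of the median gene, and centring on the median gene of each mouse turned it to 0.03. Averaged over BBR, the difference of Csnk1d was -0.52 in the mice numbered 1 to 3 and 0.11 in those numbered 4. Csnk1e was at 6.28, 6.61 and 10.3 FPKM in normal mice and 7.42, 6.48 and 9.96 FPKM in normal mice receiving BBR. Colitis mice had 2.43, 5.91 and 4.84 FPKM, and colitis mice receiving BBR had 6.15, 5.35 and 8.77 FPKM. The colitis mice were the only group whose 3 values were all below 6 FPKM. The log2 difference of Csnk1e was -0.86 for colitis against normal (SE 0.35, limma adjusted p = 0.193, exact permutation p = 0.1), and 0.67 for BBR in colitis mice (SE 0.35, adjusted p = 0.859, exact p = 0.2). Without the colitis mouse numbered 1, at 2.43 FPKM, these were -0.49 and 0.30, and Csnk1e no longer reached a P of at most 0.05 for colitis against normal. Its averaged colitis difference was -0.55, and -0.17 after quantile normalization and -0.15 after centring. With the replicate number as a term it was -0.77 (limma adjusted p = 0.031), with 16.1% of all genes past the limit.

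None of the 9 genes passed the adjusted limit for BBR in normal mice, in colitis mice or averaged over both. In colitis mice 6 were higher and 3 lower with BBR, and 0 reached a P of at most 0.05 in limma, against 6.39% of all genes. Only Npas2 had groups that did not overlap, against 7.08% of all genes, and 0 passed the adjusted limit, which 0% of all genes passed. A P of at most 0.05 was reached by 3 members without the colitis mouse numbered 2 (5.94% of all genes), by 2 without the colitis mouse receiving BBR numbered 4 (10.9%), and by 1 without the one numbered 3 (10.8%) or without the normal mouse receiving BBR numbered 3 or 4 (5.82% and 6.19%). In normal mice 4 were higher and 5 lower. Npas2 reached a P of at most 0.05 (1.36% of all genes did), the groups of Arntl, Npas2 and Csnk1d did not overlap (9.62% of all genes), and 0 passed the adjusted limit (0% of all genes). The count at this P was 2 without the mouse numbered 4 of the colitis group or of either group receiving BBR, against 1.35% to 1.8% of all genes. Averaged over both settings, 0 of the 9 reached a P of at most 0.05, against 4.94% of all genes, and 0% of all genes passed the adjusted limit. The count at this P was then 2 without the colitis mouse receiving BBR numbered 4, and 1 without the one numbered 3, the colitis mouse numbered 2 or the normal mouse receiving BBR numbered 4, against 8.89% of all genes in the first of these fits and 3.58% to 7.99% in the others.

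Among mice that all received BBR, colitis was compared with no colitis. Npas2 (1.98-fold), Nfil3 (3.51-fold) and Cry2 (0.526 of the level without colitis) reached a P of at most 0.05 in limma, against 19.7% of all genes, and Npas2 and Nfil3 had groups that did not overlap, against 20.2%. None of the 9 passed the adjusted limit, with Nfil3 at 0.207, and 0.0392% of all genes did. Without the colitis mouse receiving BBR numbered 4, Nfil3 (log2 difference 2.19, limma adjusted p = 0.0245) and Cry2 (-1.45, adjusted p = 0.0275) passed it and 7 members reached a P of at most 0.05, while 14.7% and 38.6% of all genes did. Without the one numbered 3, the difference of Cry2 was instead -0.40 (limma adjusted p = 0.625), and in the mice numbered 4 it was -0.17. In the mice numbered 1 to 3 alone, Arntl (0.99), Npas2 (1.21) and Csnk1d (-0.65) passed it, against 15.0% of all genes. For the interaction of BBR and colitis, 1 member, Npas2, reached this P, against 2.42% of all genes, and 0 of the 9 and 0% of all genes passed the adjusted limit. The count was 2 without the colitis mouse numbered 2 or the colitis mouse receiving BBR numbered 4, against 2.47% and 3.58% of all genes. Arntl had the next largest interaction, 1.31 on the log2 scale (95% interval -0.03 to 2.65, limma adjusted p = 1.00), and it was 0.78 without the colitis mouse numbered 4 and up to 1.73 without another mouse.

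**Figure D3:**
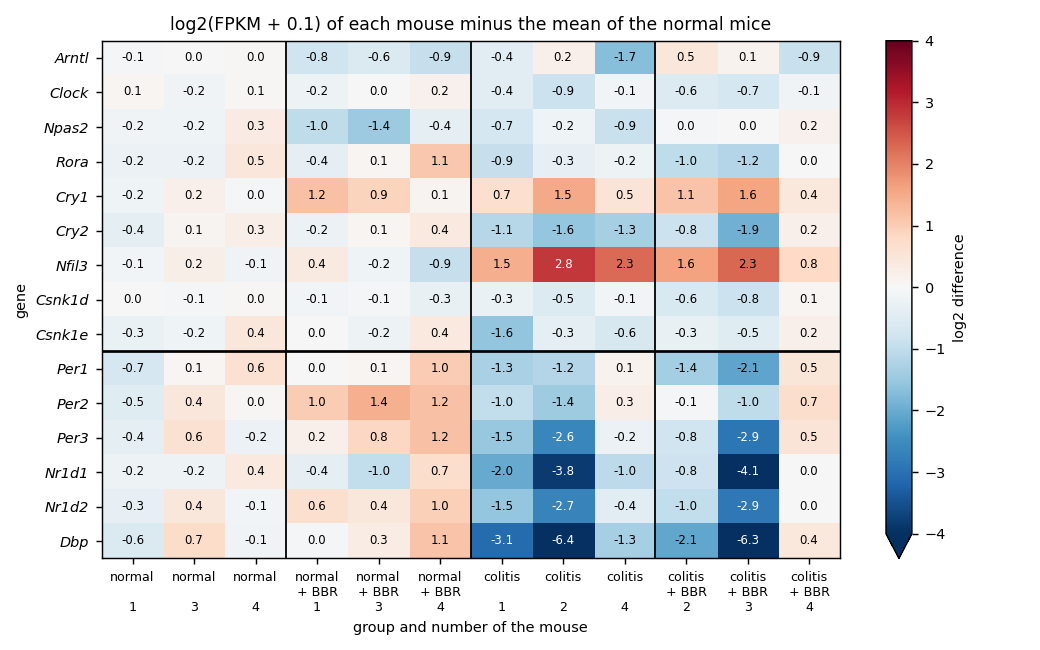
Each cell is the log2(FPKM + 0.1) of 1 mouse minus the mean of the 3 normal mice, for the 9 genes (above the line) and 6 other clock genes (below it), with colour from blue (lower) to red (higher) and all values under -4 in the darkest blue. Dbp is lowest in the colitis mouse numbered 2 and in the colitis mouse receiving BBR numbered 3, the same mice that have the highest Cry1 and Nfil3 of their groups.

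The other genes of the clock were followed through a list of 30, of which 29 were tested and Rorb was below the filter. In colitis mice 24 of the 29 were lower and 5 higher than in normal mice, where 73.7% of all genes were lower, with a median log2 difference of -0.59 against -0.32 for all genes. A P of at most 0.05 in limma was reached by 8 lower genes and 1 higher gene, against 21.4% of all genes, and 0 passed the adjusted limit, against 1.08%. Among them were the output and feedback genes Nr1d1 (-2.29 on the log2 scale, limma adjusted p = 0.194), Nr1d2 (-1.55, adjusted p = 0.208) and Dbp (-3.6, adjusted p = 0.196), each with no overlap between the groups. In the mice numbered 1 to 3 these differences were -2.72, -2.17 and -4.81, and in those numbered 4 they were -1.44, -0.30 and -1.17. In the same comparison the groups of Per1, Per2 and Per3 overlapped, and 29.3% of all genes had no overlap. Averaged over BBR, 25 of 29 were lower (78.5% of all genes), 19 of them at this P (39% of all genes in either direction), and 6 lower genes passed the adjusted limit (14.3% of all genes), Nr1d2 among them (-1.75, limma adjusted p = 0.0372). Per1, Per2 and Per3, whose proteins join the cryptochromes, had averaged differences of -1.07, -1.02 and -1.62 on the log2 scale (limma adjusted p = 0.099, 0.058 and 0.0609). These were -1.37, -1.47 and -2.27 in the mice numbered 1 to 3 and -0.49, -0.12 and -0.32 in those numbered 4.

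The 2 lowest mice for Dbp, at 0.57 FPKM in a colitis mouse (numbered 2) and 0.62 FPKM in a colitis mouse receiving BBR (numbered 3), were also the lowest of all 12 for Nr1d1, with 6.36 and 5.20 FPKM. The same mice had the highest Cry1 and Nfil3 of their groups. Arntl was at 22.2 and 21.5 FPKM in them, above every normal mouse, but the highest Arntl of all 12, 26.8 FPKM, was in the colitis mouse receiving BBR numbered 2, with 13.5 FPKM of Dbp and 51.9 FPKM of Nr1d1. In normal mice 23 of the 29 other clock genes were higher with BBR, against 45.9% of all genes, and 2 reached a P of at most 0.05, against 1.36%. Per2 was among these, at 7.51, 14.4 and 10.8 FPKM without and 21.6, 28.2 and 23.9 FPKM with BBR (log2 difference 1.21, limma adjusted p = 1.00, exact permutation p = 0.1). Arntl and Npas2 were lower in these mice. The groups of Nr1d1 (-0.22), Per1 (0.38), Per3 (0.73) and Dbp (0.46) overlapped in this comparison, and Nr1d1 was on the other side of 0. In colitis mice 17 of the 29 were higher with BBR (38% of all genes), 12 were lower and 0 reached this P (6.39% of all genes). Whether the mice of the 4 groups were taken at the same hour was not tested, as no hour is given.

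Markers of other cell types moved with colitis as well, on a background of 78.5% of all genes lower and 14.3% past the adjusted limit in the averaged comparison. All 12 smooth muscle markers were lower on the averaged comparison, 10 of them past the adjusted limit, and their summed level was 2213 to 4114 FPKM in normal mice, 3064 to 6576 with BBR, 133 to 941 in colitis mice and 651 to 4396 in colitis mice receiving BBR. All 8 granulocyte markers were higher, 6 past the limit, with sums of 0.65 to 3.64, 0.53 to 3.12, 47.2 to 491 and 2.95 to 211 FPKM in the same order, and S100a8 was listed at 0 in every mouse without colitis. Endothelial markers were lower (6 of 6, 4 past the limit), as were fibroblast markers (10 of 10, 3 past the limit). For B and plasma cells 5 of 7 were lower, 3 past the limit, and for enteric neurons and glia 7 of 8, 1 past the limit. These shares of lower genes were near that background, but the median log2 differences were -1.14 and -0.75, against -0.36 for all genes. The B and plasma cell sums were 204 to 248 FPKM in normal and 36.6 to 104 FPKM in colitis mice. With BBR they were 159 to 279 and 6.71 to 39.7 FPKM. Of the 8 macrophage markers 4 were higher, 2 past the limit, whereas in colitis against normal mice all 8 were higher, 4 at a P of at most 0.05. Of 7 tested T cell markers 0 reached a P of at most 0.05. The 12 markers of colon epithelium summed to 11434 to 21627 FPKM over all mice with 0 past the limit. Of 8 squamous markers, Krt5, Krt4 and Trp63 were below the filter and 0 of the other 5 passed the limit, with 3 of them higher at a P of at most 0.05. With BBR in colitis mice, where 62% of all genes were lower and 6.39% reached a P of at most 0.05, all 12 smooth muscle markers were higher (0 at this P). All 8 granulocyte markers (3 at this P), all 8 macrophage markers (4) and all 10 fibroblast markers (1) were lower. So were all 7 tested T cell markers (1) and all 5 tested squamous markers (1). For B and plasma cells 5 of 7 were lower (2), for enteric neurons and glia 5 of 8 (1), and for endothelium 4 of 6 (0). Colon epithelium had 6 higher and 6 lower (0). The part of these cell types in the values of the 9 genes with BBR was not tested.

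Cry2 was at 10.4 FPKM or more in the 7 mice with smooth muscle sums of 2213 to 6576 FPKM and at most 7.49 FPKM in the 5 with sums of 133 to 941 FPKM. Nfil3 was at 2.51 FPKM or more in the 5 mice with granulocyte sums of 47.2 to 491 FPKM and at most 1.56 FPKM in the 7 with sums of 0.53 to 3.64 FPKM. Within those 5, the colitis mouse numbered 1 had the highest sum, 491 FPKM, and the lowest Nfil3, 2.51 FPKM. The colitis mouse numbered 4 had the lowest sum, 47.2 FPKM, with 4.45 FPKM of Nfil3. The colitis mouse receiving BBR numbered 4 sat with the mice without colitis on both marker lists, and with them for Cry2, but its Nfil3 was still above all 6 of them. Its sums of B and plasma cell, endothelial, fibroblast, macrophage and T cell markers were below all 6. The first 3 were at 39.7, 13.5 and 341 FPKM, against 159 to 279, 21.1 to 24.5 and 348 to 726 FPKM. Its colon epithelium, squamous and enteric neuron sums lay within their range. The part of the cell makeup in the levels of Cry2 and Nfil3 was not tested.

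**Figure D4:**
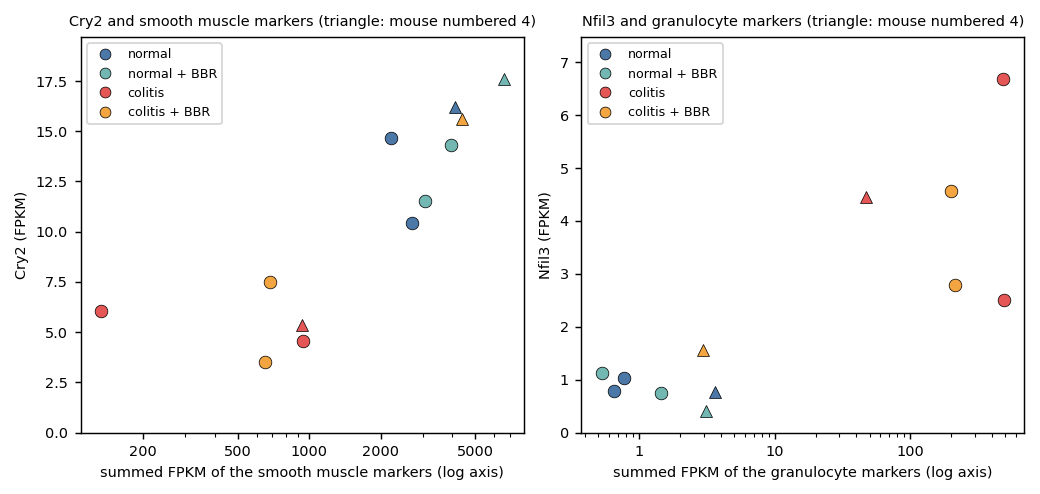
FPKM of Cry2 against the summed smooth muscle markers (left) and of Nfil3 against the summed granulocyte markers (right), 1 point per mouse, horizontal axes on a log scale. The mouse of the colitis group receiving BBR numbered 4 (orange triangle) lies at 15.6 FPKM of Cry2 among the mice without colitis and at 1.56 FPKM of Nfil3.

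Among 11943 genes with a mean of at least 1 FPKM, those of most similar profile over the 12 mice were found for each member, by the smallest root mean square difference between profiles scaled to a mean of 0 and an SD of 1, with each mouse centred on its median gene. The closest match of all was that of Nfil3 with Smpdl3b, at 0.202 SD. Smpdl3b was at 2.35 to 3.96 FPKM in normal mice and 7.45 to 13.9 FPKM in colitis mice. Slpi followed at 0.243 and Galnt3 at 0.259. For Cry2 they were Wnt8b at 0.296, Aff1 at 0.314 and Wdtc1 at 0.343. Aff1 was at 14.2 to 20.1 FPKM in normal and at 6.24 to 10.7 FPKM in colitis mice. For Npas2 they were Bnip5 at 0.396 and Rhob at 0.436, and for Arntl Cda at 0.347. The closest gene was Pan2 for Clock (0.438), Itpripl2 for Rora (0.386), Gm20604 for Csnk1d (0.440) and P2ry4 for Csnk1e (0.315), and none of these 4 remained among the closest 3 without centring. Cry1 had Sdhaf2 at 0.288, but Sdhaf2 itself varied only between 10.4 and 13.9 FPKM, and without centring, an alternative chosen after seeing the data, Txnrd1 came first, at 0.414. Smpdl3b, Aff1, Wdtc1, Bnip5, Rhob and Cda remained among the closest 3 without centring, and Slpi, Galnt3 and Wnt8b did not. Within the 9 genes Arntl and Npas2 were 0.713 apart and Cry1 and Nfil3 0.589, whereas Cry2 and Nfil3 were 1.82 apart.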

How the data were processed

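RNA of 12 mice was sequenced, and the mice were grouped by their labels. The authors cleaned the reads (SOAPnuke), mapped them with Bowtie2 2.2.5, ran RSEM 1.2.12 for expression and deposited 1 value per gene and mouse, which the values show to be scaled like FPKM although no source names the unit. Library kit and sequencer differ between labels (Illumina TruSeq) and methods (BGISEQ-500). Whether counting used strand is not given in the sources used here, and Cry2 and Csnk1e share 3.27% and 2.58% of their 50-base words with antisense transcripts. Depth was read from the step size of low values, and the worth of 3 reads covers counting error only.

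Genes with a mean of at least 0.1 FPKM were tested on log2(FPKM + 0.1), a scale that understates changes of low genes, with limma 3.58.1 in R 4.3.3. All 12 mice entered 1 fit with a trend, and p-values were Benjamini-Hochberg adjusted over 15315 genes at 0.05. Exact two-sided permutation tests were run for single members. P-values measure the spread between mice. The fit was tested on simulated data. Members, the list of other clock genes, the 10 cell type lists and the tests were chosen with earlier results of these data known. The named genes are the 9 members, 6 other clock genes and genes among the 3 of most similar profile per member; Rorb and 4 cell type markers are named as listed at 0 or below the filter. Alternatives were other pseudocounts, filters and scalings, the replicate number or the mice numbered 4 as a term, the mice numbered 1 to 3 alone, the compared groups alone and leaving out each mouse. Sequences are RefSeq's, GRCm38.p6, not the build of the alignment (mm9). Python 3.11.15, NumPy 2.4.6, pandas 2.3.3 and matplotlib 3.10.9 were used.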

Additional observations from a re-analysis of the deposited data

Results flagged for a closer look

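Npas2 differed with BBR in opposite directions in normal and in colitis mice, with no overlap between the mice with and without BBR in either setting. The difference between both effects was 1.57 on the log2 scale (95% interval 0.66 to 2.47, limma adjusted p = 1.00 over all genes, unadjusted P at most 0.05). It was 1.32 to 1.85 when 1 mouse was left out and 1.40 to 1.68 under the 9 other alternatives, with an adjusted p of at least 0.511 in each of these fits.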

How the results depend on the processing

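Leaving out 1 mouse kept the direction of 709 of 756 values of single members and reversed 47, and the other alternatives kept 580 of 596 and reversed 16. The cause of these changes was not tested. In the order colitis against normal, BBR in colitis, BBR in normal mice, colitis under BBR, interaction, averaged colitis and averaged BBR, the members at a P of at most 0.05 ranged over 2 to 5, 0 to 3, 1 to 2, 2 to 7, 1 to 2, 3 to 7 and 0 to 2 when 1 mouse was left out. Those past the adjusted limit ranged over 0 to 2 in colitis against normal, 0 to 2 in colitis under BBR and 1 to 6 in averaged colitis. In the other 4 they stayed at 0.

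For colitis against normal, the members past the adjusted limit were 1 with a pseudocount of 1, 2 with a term for the mice numbered 4 and 2 in a fit of both groups alone, against 1.27%, 9.22% and 3.19% of all genes. For averaged colitis they were 1 after quantile normalization, 1 after centring, 5 with the term and 4 in the mice numbered 1 to 3, against 8.34%, 6.69%, 34.9% and 40.4% of all genes, with 3 at a P of at most 0.05 after quantile normalization (26.5%). For colitis under BBR, the mice numbered 1 to 3 gave 3 past the adjusted limit (15%) and 7 at a P of at most 0.05 (38.9%), and the term gave 5 (30.6%). At this P, BBR in colitis had 1 member after quantile normalization (7.28%), 2 after centring (6.48%) and 2 with the term (9.89%). BBR in normal mice had 3 with the term (2.43%), 3 in the mice numbered 1 to 3 (1.8%) and 3 in the fit of both groups alone (4.91%). The interaction had 2 with the term (4.38%) and 2 in the mice numbered 1 to 3 (3.39%), where averaged BBR had 1 (5.01%).

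Reversed log2 differences were small. Centring turned Csnk1d to 0.027 in colitis against normal, 0.14 in colitis under BBR and 0.085 in averaged colitis, Csnk1e to 0.21 in colitis under BBR (0.17 after quantile normalization) and Clock to 0.031 with BBR in normal mice (0.00903 after quantile normalization). The mice numbered 1 to 3 gave -0.027 for Cry2 with BBR in colitis, 0.019 for Nfil3 with BBR in normal mice, -0.083 for Cry2 and -0.26 for Csnk1d in the interaction, and -0.022 for Clock and -0.20 for Rora in averaged BBR. A pseudocount of 0.01 gave -0.0198 for Rora there. With 1 mouse left out, BBR in colitis ranged from -0.19 to 0.19 for Clock, -0.13 to 0.45 for Cry1, -0.039 to 1.02 for Cry2 and -0.43 to 0.039 for Csnk1d. BBR in normal mice ranged from -0.10 to 0.10 for Clock, -0.15 to 0.58 for Rora, -0.11 to 0.23 for Cry2, -0.56 to 0.093 for Nfil3 and -0.12 to 0.28 for Csnk1e. The interaction ranged from -0.18 to 0.19 for Clock, -0.11 to 0.94 for Cry2, -0.73 to 0.015 for Nfil3 and -0.27 to 0.19 for Csnk1d. Averaged colitis ranged from -0.20 to 0.27 for Arntl, and averaged BBR from -0.38 to 0.10 for Arntl, -0.096 to 0.092 for Clock and -0.20 to 0.16 for Rora.

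The replicate numbers are shared by some mice of different groups. The deviations of 13 same-numbered pairs from their group means correlated by 0.34 on average, from 0.0777 up (0.497 on average among the mice numbered 4), against -0.103 for pairs of different number. The lowest was the pair numbered 2, while those numbered 1, 3 and 4 were at 0.29 to 0.386, 0.109 to 0.137 and 0.357 to 0.751. As that 1 pair lay under 0.1 and no label ties the numbers to a batch, the numbers were not taken to pair the mice. The fits with the replicate number as a block are therefore given as an alternative. With the replicate block, 1 member, Nfil3, passed the adjusted limit in colitis against normal (limma adjusted p = 0.0416), against 4.79% of all genes. In averaged colitis 4 passed it, Nfil3, Cry2, Rora and Csnk1e, against 16.1% of all genes. At a P of at most 0.05 there were 2 for BBR in colitis, 3 for BBR in normal mice and 2 for the interaction, against 11%, 2.56% and 5.09%. The block turned averaged colitis to -0.25 for Arntl and averaged BBR to -0.026 for Rora.

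Over all genes, 165 passed the adjusted limit in colitis against normal, between 71 and 1412 under the alternatives, and 2188 in averaged colitis, between 1025 and 6187. Leaving out 1 mouse gave 11 to 818 and 319 to 5943, and for colitis under BBR 0 to 2255 around 6. Of the 2188, 437 were higher, against 719 of 1278 after quantile normalization. A filter at a mean of 1 left Rora untested. All values of the 9 genes lie above the worth of 3 reads on 2000 bases.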

Other observations

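The ratio of Npas2 to Clock, the interchangeable partners of ARNTL, was 0.747 to 1.07 in normal mice and 0.316 to 0.606 in normal mice receiving BBR. It was 0.514 to 1.45 in colitis mice and 1.09 to 1.46 in colitis mice receiving BBR. All 3 colitis mice receiving BBR were thus above all 6 mice without colitis, and the colitis mice spanned nearly the whole range. The ratio of Csnk1d to Csnk1e was 4.10 to 6.71 in normal mice, 3.39 to 6.06 in normal mice receiving BBR and 4.28 to 4.99 in colitis mice receiving BBR. Colitis mice had 4.82, 7.85 and 14.0, so 1 mouse sets the top of their range. These ratios were chosen after their values were seen and were not tested.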
